A study of Saccharomyces cerevisiae with 15 samples.

Results

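The 10 histone genes of the budding yeast Saccharomyces cerevisiae were followed across 15 messenger RNA libraries. They were taken by systematic identifier from a table of 7126 genes, and all 10 were found. They comprise both copies of each core histone gene, that is HTA1 (YDR225W) and HTA2 (YBL003C) for H2A, HTB1 (YDR224C) and HTB2 (YBL002W) for H2B, HHT1 (YBR010W) and HHT2 (YNL031C) for H3, and HHF1 (YBR009C) and HHF2 (YNL030W) for H4. The remaining pair is HTZ1 (YOL012C), the H2A.Z variant, and HHO1 (YPL127C), the linker histone H1. The study asked how transcripts that depend on Hsf1, the heat shock transcription factor, respond when Hsf1 loses its contacts with the chaperone Hsp70. Cells with wild type HSF1, with the amino-terminal Hsp70 site of Hsf1 mutated (hsf1-mN), with the carboxyl-terminal site mutated (hsf1-mC) or with both sites mutated (hsf1-mNmC) were harvested from YPD cultures in mid-log growth at 30 °C. A further group of wild type cells was moved to 37 °C for 15 min. Each of the 5 groups had 3 biological replicates, and the labels do not say whether a mutant strain was represented by more than 1 clone. RNA was selected with oligo(dT), and values are FPKM as deposited, that is reads scaled by gene length and by the depth of the library.

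Core histones form the octamer around which DNA is wrapped, with H2A paired to H2B and H3 paired to H4. In yeast each core histone is encoded by a pair of genes, and the genes lie in divergent couples that share an upstream region: HTA1 with HTB1, HTA2 with HTB2, HHT1 with HHF1 and HHT2 with HHF2. Their transcription is concentrated around the start of DNA replication and is activated through Spt10 and Spt21. Outside that window the HIR complex represses most, but not all, of these couples. HTZ1 is deposited near promoters by the SWR1 complex. Yeast histone mRNAs, unlike most animal ones, carry poly(A) tails, so oligo(dT) selection retains them. In RNA from a whole culture, fewer cells in S phase and less histone mRNA per S-phase cell cannot be told apart.

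The libraries held 15462618 to 25409519 reads on genes (median 20675392). The histone values rest on 1149 to 31633 reads each, and all 10 members passed the filter of at least 1 FPKM in at least 3 libraries, as did 6399 genes in all. A pair of libraries went against their labels. HSF1 stood at 52.1 and 59.4 FPKM in replicates 1 and 2 of hsf1-mNmC but at 149.9 in the library labelled replicate 3, while the libraries at 37 °C gave 159, 148 and, in the one labelled replicate 3, 67.6. By rank correlation over 7126 genes (mean Spearman, genes not being replicates), mNmC replicate 3 as labelled scored 0.942 against its own group and 0.997 against replicates 1 and 2 at 37 °C. Replicate 3 at 37 °C as labelled scored 0.940 against its own group and 0.997 against replicates 1 and 2 of mNmC. Results are therefore given with all libraries as labelled and with 13 libraries, that is without these 2. All comparisons with wild type at 30 °C share the same 3 libraries of that group.

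The shared upstream regions are shown first because they hold the known activating element of these genes, the Spt10 site, searched as TTCCNNNNNNTTC on both strands. The 4 divergent regions of the core histone genes, read from the R64 reference, span 817 bases between the start codons of HTA1 and HTB1 on chromosome IV, 699 for HTA2 and HTB2 on chromosome II, 646 for HHT1 and HHF1 on chromosome II and 676 for HHT2 and HHF2 on chromosome XIV. The 5 matches found are printed below 5′ to 3′ with the fixed letters of the motif in capitals and 5 flanking bases on each side.
HTA1-HTB1, first match: cgctgTTCCaaaattTTCgcctc
HTA1-HTB1, second match: ctccaTTCCaatagcTTCgcaca
HTA2-HTB2: aggtgTTCCcattatTTCtcaaa
HHT1-HHF1: aactgTTCCgagcgcTTCtcccc
HHT2-HHF2: gtccgTTCCgagcacTTCgcatt

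All 8 core genes had at least 1 match within 600 bases before the start codon, and HTZ1 and HHO1 had none, against 15.9% of 6005 genes with such a window. The heat shock element GAANNTTCNNGAA, the type of site bound by Hsf1, matched upstream of 0 of 10 histone genes and of 1.70% of all genes. The stress response element CCCCT, read by Msn2 and Msn4, matched upstream of 7 of 10 and of 39.7% of all genes. Of the divergent regions, HHT2-HHF2 and HTA1-HTB1 held 2 CCCCT matches each, HHT1-HHF1 held 1 and HTA2-HTB2 held 0. These are matches of letters and not evidence of binding, and neighbours within a region share the same bases. The activating element was already known for the core genes, so its matches there are not an independent result.

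The copies of each core histone are close in sequence, which bears on how firmly they can be told apart by reads. HHT1 and HHT2 encode the same protein of 136 residues and differ at 28 of 411 coding bases (93.2% identical). Their first 90 coding bases are shown with the 8 differing bases in capitals, since the H3 pair is where the copies moved most unequally at 37 °C.
HHT1: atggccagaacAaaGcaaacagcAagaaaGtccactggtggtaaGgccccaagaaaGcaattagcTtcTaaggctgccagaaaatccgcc
HHT2: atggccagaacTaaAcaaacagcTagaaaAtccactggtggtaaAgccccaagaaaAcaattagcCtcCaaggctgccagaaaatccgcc

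The longest run of identical bases was 74 in this pair. HHF1 and HHF2 encode the same 103 residues, differ at 8 of 312 bases (97.4% identical) and share a run of 80. HTA1 and HTA2 differ at 25 of 399 bases and at 2 of 132 residues, and HTB1 and HTB2 at 48 of 396 bases and at 4 of 131 residues. No source used here says how reads that match both copies were assigned, so levels of single copies are less certain than the sum of a pair.

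In wild type at 30 °C the 8 core genes were among the most abundant mRNAs. By mean FPKM HHT2 ranked 76 of 7126 genes, followed by HHF2 (rank 104), HTB2 (106), HTA1 (115), HHF1 (143), HTB1 (167), HTA2 (180) and HHT1 (183). HTZ1 ranked 515 and HHO1 ranked 1009. The ranges over the 3 libraries of HHF2 (2209 to 2478 FPKM) and HTB2 (2317 to 2412) overlapped, as did those of HTA2 (1282 to 1474) and HHT1 (1267 to 1383). The range of HTB1 (1402 to 1590 FPKM) also overlapped that of HTA2. The order within each of these pairs therefore lay inside their spread. Other neighbours did not overlap, such as HHT2 (3029 to 3218 FPKM) and HHF2.

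**Figure D1:**
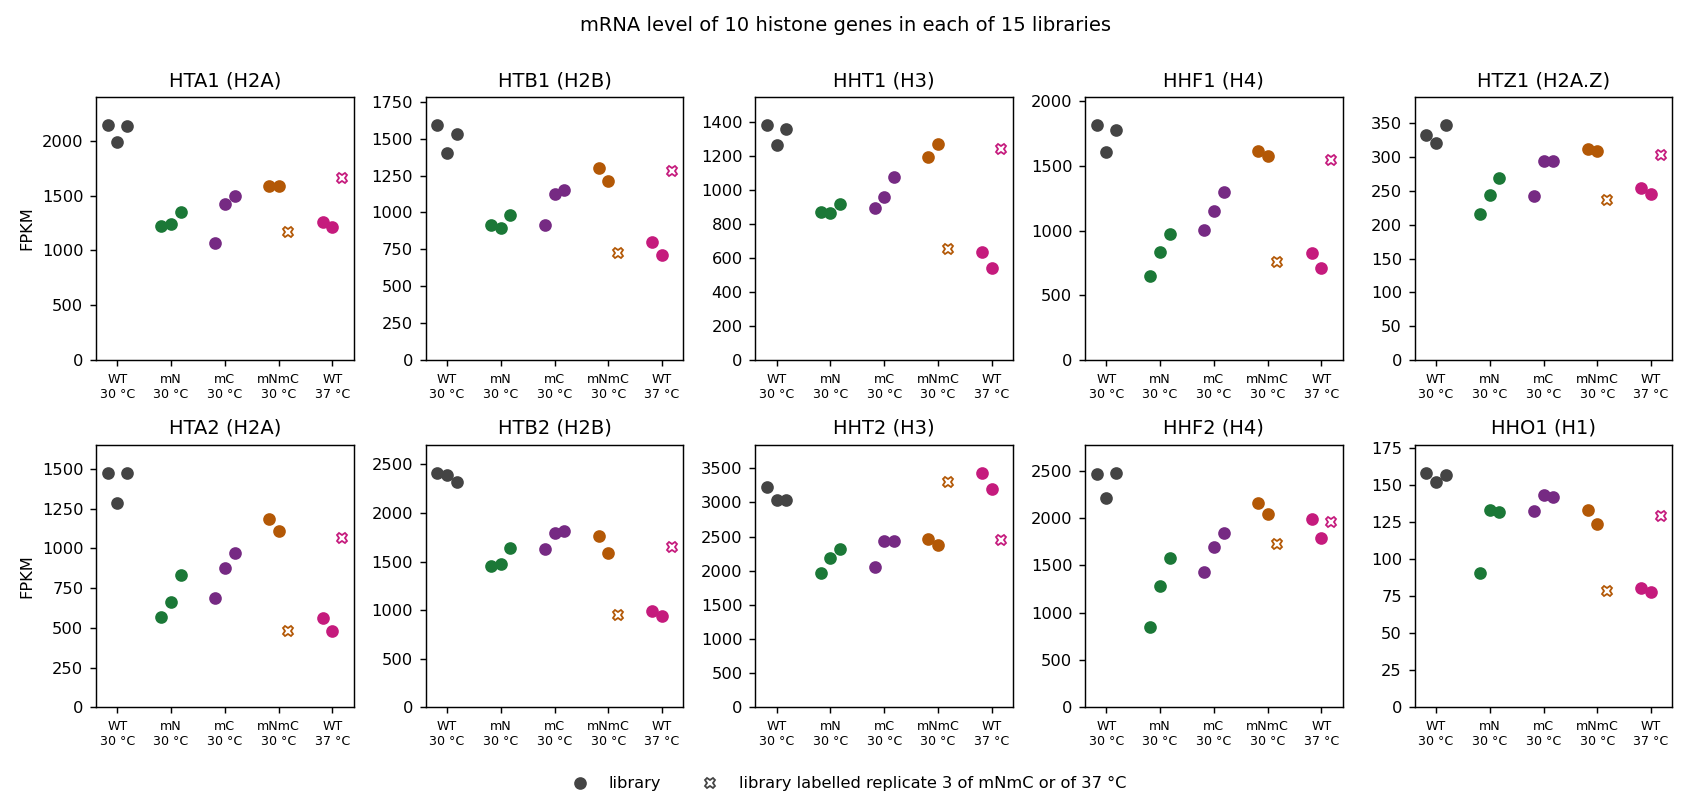
FPKM of each histone gene (vertical axes, from 0) in the 15 libraries by group, 1 point per library, with the library labelled replicate 3 of mNmC and of 37 °C as open crosses. In replicates 1 and 2 at 37 °C every gene except HHT2 sits below wild type at 30 °C, and the crosses sit with the other group in most panels.

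Heat lowered most histone mRNAs within 15 min, but not HHT2. As labelled, 6 of 10 histone genes fell at 37 °C against 30 °C and 0 rose, beside 5.97% of all 6399 genes called lower and 32.1% called higher. With 13 libraries 8 of 10 fell and 0 rose, beside 18.9% called lower and 47% called higher. Calls are at an adjusted p under 0.05 from limma on log2(FPKM + 1), Benjamini-Hochberg over all genes tested, and changes below are log2 values ± SE. The median change of the 10 members was -0.74 as labelled and -0.98 with 13 libraries, where that of all genes was 0.26 and 0.29. Scaling every library to the same upper quartile brought the median of all genes to 0.04 and 0.05, and then 9 of 10 members fell in either set of libraries. Under that scaling 861 of all 6399 genes were called lower and 1044 higher as labelled. With 13 libraries the numbers were 1922 lower and 2192 higher.

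The H3 genes parted company at 37 °C. HHT1 stood at 1383, 1267 and 1362 FPKM at 30 °C and at 636, 544 and, in the library labelled replicate 3, 1240.4 at 37 °C. HHT2 stood at 3218, 3031 and 3029 FPKM at 30 °C and at 3432, 3188 and, in the library labelled replicate 3, 2454 at 37 °C. For HHT1 all libraries at 37 °C lay below all at 30 °C, while for HHT2 the groups overlapped. HHT1 fell by 0.82 ± 0.29 on the log2 scale as labelled (adjusted p = 0.0414) and fell by 1.18 ± 0.10 with 13 libraries (adjusted p = 8.26e-07). HHT2 changed by -0.05 ± 0.17 as labelled (adjusted p = 0.850) and by 0.10 ± 0.10 with 13 libraries (adjusted p = 0.402), and was not called. With upper-quartile scaling the HHT2 value was -0.28 ± 0.17 as labelled (adjusted p = 0.210) and -0.15 ± 0.09 with 13 libraries (adjusted p = 0.155), so the sign for HHT2 depends on the scaling and on the libraries. The gene that converges on HHT2 from downstream, SIW14, stood at 41.1 FPKM at 30 °C and 43.3 in replicates 1 and 2 at 37 °C, far below HHT2. IPP1, which converges on HHT1, stood at 1283 FPKM at 30 °C and 1049 in replicates 1 and 2 at 37 °C, about the level of HHT1 at 30 °C and above it at 37 °C. No strand marking is stated for these libraries, and the part of reads from such neighbours was not tested.

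The H4 genes followed the same order with a smaller gap. HHF1 stood at 1814, 1610.4 and 1777 FPKM at 30 °C and at 830.4, 710.4 and, in the library labelled replicate 3, 1546 at 37 °C. HHF2 stood at 2461, 2209 and 2478 FPKM at 30 °C and at 1992, 1790.1 and, in the library labelled replicate 3, 1957 at 37 °C. Neither gene had overlapping groups. HHF1 fell by 1.17 ± 0.16 with 13 libraries (adjusted p = 4.48e-05) and missed the threshold as labelled (-0.84 ± 0.32, adjusted p = 0.0559). HHF2 gave -0.32 ± 0.20 as labelled (adjusted p = 0.227) and -0.33 ± 0.21 with 13 libraries (adjusted p = 0.174), and was not called. With upper-quartile scaling HHF2 fell by 0.58 ± 0.15 with 13 libraries (adjusted p = 0.00537). With 13 libraries HHT2 and HHF2, the members of 1 divergent couple, were thus the core genes without a call on the deposited scale, and HHT2 was the core gene without one after rescaling.

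Both H2A genes fell, HTA2 with the larger change. HTA1 stood at 2142, 1992 and 2136 FPKM at 30 °C and at 1258, 1212 and, in the library labelled replicate 3, 1661 at 37 °C. HTA2 stood at 1474, 1282 and 1473 FPKM at 30 °C and at 562, 481 and, in the library labelled replicate 3, 1064 at 37 °C. Every library at 37 °C lay below every one at 30 °C for both. HTA1 fell by 0.62 ± 0.18 as labelled (adjusted p = 0.0200) and fell by 0.76 ± 0.12 with 13 libraries (adjusted p = 0.000214), and HTA2 fell by 1.09 ± 0.35 (adjusted p = 0.0294) and fell by 1.44 ± 0.17 (adjusted p = 1.64e-05).

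Both H2B genes fell as well, HTB2 with the larger change. HTB1 stood at 1590.45, 1402 and 1529.99 FPKM at 30 °C and at 797, 713 and, in the library labelled replicate 3, 1279.9 at 37 °C. HTB2 stood at 2412, 2394 and 2317 FPKM at 30 °C and at 992, 942 and, in the library labelled replicate 3, 1648 at 37 °C. Again no library at 37 °C reached the range at 30 °C. HTB2 fell by 1.04 ± 0.24 as labelled (adjusted p = 0.00696) and fell by 1.30 ± 0.08 with 13 libraries (adjusted p = 1.25e-07), and HTB1 fell by 0.74 ± 0.24 (adjusted p = 0.0310) and fell by 1.00 ± 0.11 (adjusted p = 8.63e-06).

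The variant and the linker histone also fell. HHO1 stood at 159, 152 and 157 FPKM at 30 °C and at 81.0, 77.9 and, in the library labelled replicate 3, 129.7 at 37 °C. It fell by 0.73 ± 0.23 as labelled (adjusted p = 0.0263) and fell by 0.96 ± 0.14 with 13 libraries (adjusted p = 6.73e-05). HTZ1 stood at 332, 321 and 347 FPKM at 30 °C and at 254, 245 and, in the library labelled replicate 3, 304 at 37 °C. It fell by 0.42 ± 0.10 with 13 libraries (adjusted p = 0.00420), the smallest change among the 8 called, and was not called as labelled (-0.32 ± 0.14, adjusted p = 0.0881). In all, 9 of 10 members had every library at 37 °C below every library at 30 °C, against 9.78% of genes as labelled and 25.4% with 13 libraries. Leaving out 1 library at a time from the labelled set moved the count of 6 calls, to 1 without replicate 1 or 3 at 30 °C or replicate 1 or 2 at 37 °C, to 2 without replicate 2 at 30 °C and to 8 without the library labelled replicate 3 of 37 °C or of mNmC.

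**Figure D2:**
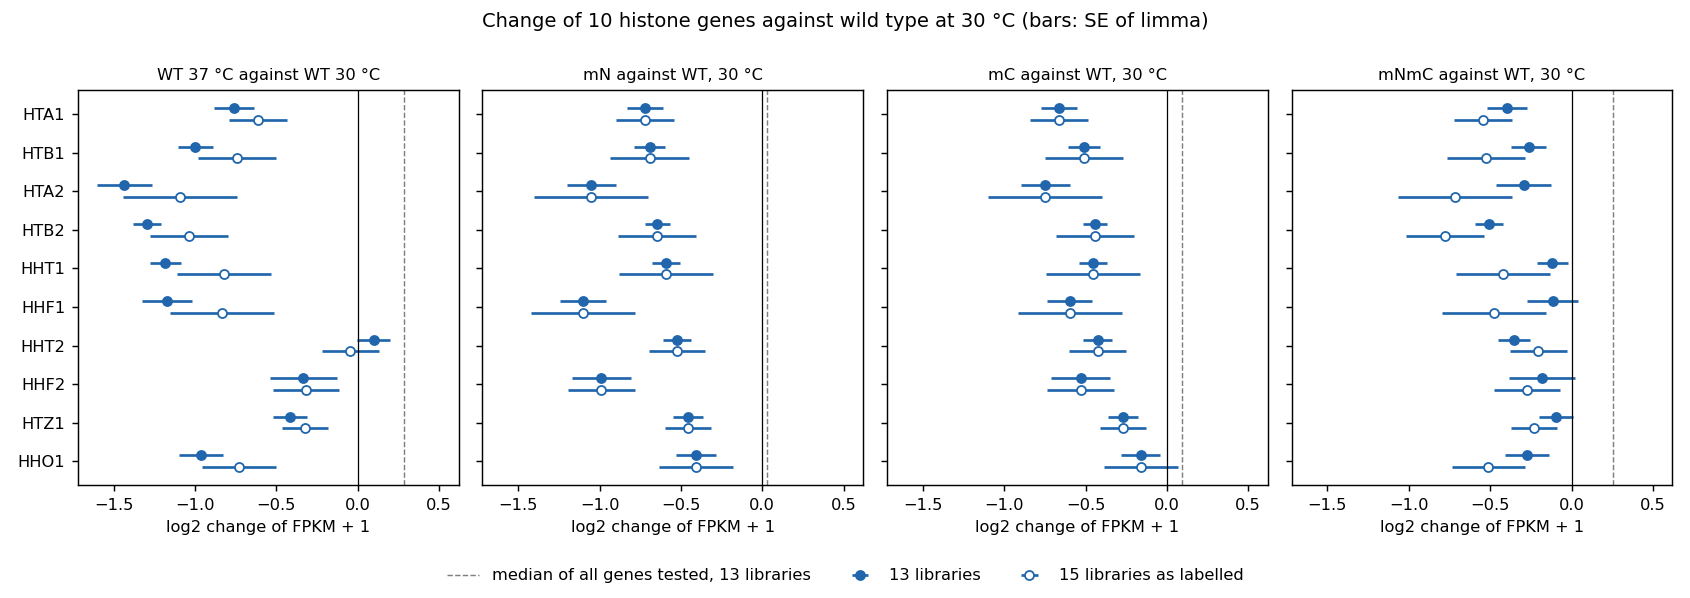
Log2 change of FPKM + 1 against wild type at 30 °C for the 10 histone genes in 4 comparisons, with 13 libraries (filled) and as labelled (open), bars showing the SE of limma and the dashed line the median of all genes with 13 libraries. At 37 °C HHT2 is the member near 0, whereas in mN and mC all 10 points lie below 0 and in mNmC they lie closer to 0 than in mN when 13 libraries are used on this deposited scale (with upper-quartile scaling HTB2, HHT2 and HHO1 do not).

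With the amino-terminal Hsp70 site mutated, all 10 histone genes were lower at 30 °C, HHT2 included. The call depends on the libraries kept. With 13 libraries 10 of 10 fell, beside 5.36% of all genes called lower, and as labelled 0 of 10 passed, beside 0.0313% of all genes, although 8 of 10 had an unadjusted p under 0.05. In a fit of mN and wild type at 30 °C alone 8 of 10 fell, beside 1.45% of all genes, and HHF2 (adjusted p = 0.0554) and HHO1 (adjusted p = 0.168) were not called. The library values of mN and of wild type at 30 °C are the same in all of these fits, and only the estimated spread differs. Of the labelled fits with 1 library left out, those without mN replicate 3 or without the library labelled mNmC replicate 3 called 1 member, HHF2. The median change of the members was -0.67, where that of all genes was 0.03. Every mN library lay below every wild type library for all 10 members, which held for 12.3% of genes.

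HHF1, HTA2 and HHF2 fell most in mN. HHF1 stood at 649.6, 833 and 969.9 FPKM and HHF2 at 849, 1286 and 1578 in mN replicates 1 to 3, and replicate 1 was the lowest for both. HHF1 fell by 1.10 ± 0.14 (adjusted p = 0.000696 with 13 libraries, 0.204 as labelled) and HHF2 fell by 0.99 ± 0.18 (adjusted p = 0.00541 with 13 libraries, 0.0601 as labelled). HTA2 stood at 569, 660 and 831 FPKM in mN and fell by 1.05 ± 0.15 (adjusted p = 0.00125 with 13 libraries, 0.280 as labelled). HTA1, at 1221, 1237 and 1349 FPKM, fell by 0.72 ± 0.11 (adjusted p = 0.00184 with 13 libraries, 0.129 as labelled).

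The H2B and H3 genes were lower in mN by smaller and more even amounts. HTB1 stood at 917, 894 and 985 FPKM and fell by 0.69 ± 0.10, and HTB2 at 1453, 1471 and 1638 FPKM fell by 0.64 ± 0.08, with 13 libraries. HHT1 stood at 870.3, 867 and 920.4 FPKM and fell by 0.59 ± 0.09, and HHT2 at 1959.7, 2182 and 2322 FPKM fell by 0.52 ± 0.09. The adjusted p of these 4 genes lay between 0.000414 and 0.00313 with 13 libraries, in limma over all genes. HTZ1 stood at 217, 244 and 269 FPKM and fell by 0.46 ± 0.09 (adjusted p = 0.00794). HHO1 stood at 91.1, 133 and 132 FPKM and fell by 0.41 ± 0.12 (adjusted p = 0.0381), a value that rests on replicate 1, since without it the labelled fit gave -0.23.

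With the carboxyl-terminal site mutated, the same genes were lower by smaller amounts, and no difference from mN passed the test. With 13 libraries 7 of 10 fell in mC, beside 2.45% of all genes called lower, and as labelled 0 of 10 passed, beside 0.0156% of all genes, with 3 of 10 at an unadjusted p under 0.05. The median change of the members was -0.48, where that of all genes was 0.09. All mC libraries lay below all wild type libraries for 10 of 10 members, which held for 10.2% of genes. The 7 genes that fell with 13 libraries were HTA1, HTA2, HTB1, HTB2, HHT1, HHT2 and HHF1. In a fit of mC and wild type at 30 °C alone 10 of 10 fell, beside 6.09% of all genes, with HHF2 (adjusted p = 0.0104), HTZ1 (adjusted p = 0.0428) and HHO1 (adjusted p = 0.0359) among them.

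HTA2 showed the largest change in mC. It stood at 688, 879 and 973 FPKM and fell by 0.75 ± 0.15 (adjusted p = 0.00985 with 13 libraries, 0.475 as labelled). HTA1 stood at 1069, 1422 and 1499 FPKM and fell by 0.67 ± 0.11 (adjusted p = 0.00393 with 13 libraries, 0.166 as labelled). HHF1, at 1001, 1150.4 and 1299.6 FPKM, fell by 0.60 ± 0.14 (adjusted p = 0.0187 with 13 libraries, 0.567 as labelled). Replicate 1 was the lowest mC library for all 3 of these genes. HTB1 stood at 913, 1124 and 1152 FPKM and fell by 0.51 ± 0.10, and HTB2, at 1633, 1795 and 1817, fell by 0.44 ± 0.08. HHT1 stood at 895, 963 and 1079.7 FPKM and fell by 0.45 ± 0.09, and HHT2, at 2058, 2436 and 2433, fell by 0.43 ± 0.09. The adjusted p of these 4 genes lay between 0.00450 and 0.0111 with 13 libraries, in limma over all genes. The 3 genes not called with 13 libraries were HHF2 at 1428, 1696 and 1843 FPKM (-0.53 ± 0.18, adjusted p = 0.0776), HTZ1 at 242, 294 and 294 (-0.27 ± 0.09, adjusted p = 0.0754) and HHO1 at 133, 143 and 142 (-0.16 ± 0.12, adjusted p = 0.413), in limma with 13 libraries.

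Set directly against each other, mC and mN did not differ at the threshold for any histone gene. In limma 0 of 10 were called as labelled, beside 0.156% of all genes called in either direction, with 1 of 10 at an unadjusted p under 0.05. With 13 libraries 0 of 10 were called, beside 1.03% of all genes, with 3 of 10 at an unadjusted p under 0.05. The largest difference was that of HHF1, 0.50 ± 0.14 higher in mC on the log2 scale (adjusted p = 0.151 with 13 libraries). The median difference of the members was 0.19, where that of all genes was 0.07, so a lower level in mN than in mC was not shown for single genes.

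With both sites mutated and 13 libraries, on the deposited scale, the fitted change of all 10 histone genes was smaller than in mN, and that of 8 of 10 smaller than in mC, HTB2 and HHO1 being the exceptions. With upper-quartile scaling this held for 7 of 10 against either mutant, the exceptions being HTB2 (-0.74 in mNmC, -0.63 in mN, -0.52 in mC), HHT2 (-0.59, -0.51 and -0.51) and HHO1 (-0.51, -0.40 and -0.24). As labelled, HTA1 and HTB2 fell, 2 of 10, and 0 rose, beside 2.41% of all genes called lower and 24.5% called higher. With 13 libraries HTA1, HTB2 and HHT2 fell, 3 of 10, and 0 rose, beside 7.39% called lower and 40.6% called higher. The median change of the members was -0.49 as labelled and -0.27 with 13 libraries, where that of all genes was 0.27 and 0.25. With upper-quartile scaling, which brought the median of all genes to 0.04 and 0.03, the counts were 4 and 9 of 10, so the number of histone genes called lower in mNmC turns on how libraries are put on 1 scale. Beside these, 394 of all 6399 genes were called lower as labelled and 1080 with 13 libraries under that scaling. All mNmC libraries lay below all wild type libraries for 7 of 10 members as labelled (8.13% of genes) and for 8 of 10 with 13 libraries (14.7% of genes). The labelled count of 2 became 0 without any one wild type library at 30 °C or the library labelled mNmC replicate 3, and 1 without mN replicate 2 or 3, mC replicate 2, mNmC replicate 2 or 37 °C replicate 1.

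HTB2 fell most in mNmC. It stood at 1764, 1583 and, in the library labelled replicate 3, 953 FPKM, and fell by 0.78 ± 0.24 as labelled (adjusted p = 0.0321) and fell by 0.51 ± 0.08 with 13 libraries (adjusted p = 0.000653). HTA1 stood at 1584, 1590.04 and, in the library labelled replicate 3, 1170 FPKM, and fell by 0.54 ± 0.18 as labelled (adjusted p = 0.0411) and fell by 0.40 ± 0.12 with 13 libraries (adjusted p = 0.0214). HHT2 stood at 2457, 2376 and, in the library labelled replicate 3, 3303 FPKM. For HHT2 that library was the highest of its group and for HTA1 and HTB2 the lowest. HHT2 fell by 0.36 ± 0.10 with 13 libraries (adjusted p = 0.0122) and gave -0.21 ± 0.17 as labelled (adjusted p = 0.387).

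The other 7 members were not called in mNmC in either set of libraries on the deposited scale. In replicates 1 and 2, HTA2 stood at 1185 and 1110.06 FPKM, HTB1 at 1299 and 1211, HHT1 at 1193 and 1271, and HHF1 at 1619 and 1578. HHF2 stood at 2159 and 2038 FPKM, HTZ1 at 313 and 309.8, and HHO1 at 133 and 124. The libraries of HHT1 and HHF1 overlapped with wild type, and those of the other 5 lay below the wild type range. In the library labelled replicate 3 the values were 478 for HTA2, 728 for HTB1, 656 for HHT1, 757 for HHF1, 1727 for HHF2, 236 for HTZ1 and 78.4 FPKM for HHO1. All 7 lay below the rest of the group. With 13 libraries their changes ran from -0.29 ± 0.17 for HTA2 (adjusted p = 0.169) to -0.10 ± 0.10 for HTZ1 (adjusted p = 0.454).

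The change in mNmC was smaller than the sum of the changes in mN and mC. That sum with 13 libraries was -1.80 for HTA2, -1.70 for HHF1, -1.52 for HHF2 and -1.39 for HTA1, where mNmC itself gave -0.29, -0.12, -0.18 and -0.40. The test of the difference, the interaction of the sites, was positive for 9 of 10 members with 13 libraries, beside 22.1% of all genes called higher, and HHO1 was the exception (0.30 ± 0.18, adjusted p = 0.230). It was largest for HHF1 (1.58 ± 0.21, adjusted p = 0.000305), HTA2 (1.50 ± 0.23, adjusted p = 0.000691) and HHF2 (1.34 ± 0.28, adjusted p = 0.00403). As labelled only HHF2 passed, 1 of 10, at 1.24 ± 0.29 (adjusted p = 0.0306), beside 3.5% of all genes called higher. Without the library labelled mNmC replicate 3 the labelled count rose to 4, without the library labelled 37 °C replicate 3 to 2, and it was 0 without any one wild type library at 30 °C, mN replicate 2, mC replicate 1 or 2, or mNmC replicate 1 or 2. All 4 group means enter this value, and wild type was the highest of the 4 for all 10 members.

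Set against wild type at 37 °C, mNmC at 30 °C held more of most histone mRNAs and less HHT2. With 13 libraries 8 of 10 were higher and 1 was lower. Beside these, 1794 of all 6399 genes were called higher and 1843 lower, 56.8% in either direction. HTA2 was higher by 1.14 ± 0.19 (adjusted p = 0.000283), HHT1 by 1.06 ± 0.11 (adjusted p = 5.78e-06) and HHF1 by 1.06 ± 0.17 (adjusted p = 0.000283), while HHT2 was lower, at -0.45 ± 0.11 (adjusted p = 0.00387). HHF2 was the gene not called (0.15 ± 0.23, adjusted p = 0.592). As labelled 0 of 10 were called in limma, beside 0% of all genes, and 0 of 10 had an unadjusted p under 0.05. These groups each hold 1 of the libraries that went against their labels.

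The share of each copy within its pair does not depend on how a library is scaled. HHT2 supplied 70.0, 70.5 and 69.0% of H3 mRNA in wild type at 30 °C, while at 37 °C the shares were 84.4, 85.4 and, in the library labelled replicate 3, 66.4%. It supplied 69.2, 71.6 and 71.6% in mN, 69.7, 71.7 and 69.3% in mC, and 67.3, 65.2 and, in the library labelled replicate 3, 83.4% in mNmC. The share in the mutants stayed within a few percentage points of wild type except in that library. The ratio of HHT1 to HHT2 differed among the 5 groups with 13 libraries (exact permutation test, one-sided, p = 0.000423, 0.00169 adjusted over 4 ratios) and did not pass as labelled (exact permutation p = 0.395, adjusted 0.400).

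H4 mRNA showed the same pattern with a smaller shift. HHF2 supplied 57.9 ± 0.33% of H4 mRNA in wild type at 30 °C (SD, n = 3), 59.8 ± 2.77% in mN (n = 3), as well as 59.0 ± 0.50% in mC (n = 3). It supplied 57.1 and 56.4% in mNmC replicates 1 and 2 and 69.5% in the library labelled replicate 3, and 70.6 and 71.6% at 37 °C with 55.9% in the library labelled replicate 3. The ratio of HHF1 to HHF2 differed among groups with 13 libraries (exact permutation p = 0.00568, adjusted 0.00568) and not as labelled (exact permutation p = 0.400, adjusted 0.400).

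In H2A, HTA1 gained on HTA2 at 37 °C with 13 libraries. HTA1 supplied 59.7 ± 0.94% of H2A mRNA in wild type at 30 °C (SD, n = 3), 65.1 ± 3.16% in mN (n = 3), 61.1 ± 0.62% in mC (n = 3), 58.1 ± 1.18% in mNmC with 13 libraries (n = 2) and 70.4 ± 1.74% at 37 °C with 13 libraries (n = 2). As labelled the HTA1 share was 62.4 ± 7.53% in mNmC and 67.2 ± 5.56% at 37 °C (n = 3 each). The ratio of HTA1 to HTA2 differed among groups with 13 libraries (exact permutation p = 0.00294, adjusted 0.00392) and not as labelled (exact permutation p = 0.295, adjusted 0.400). In H2B, HTB1 supplied 38.8 ± 1.63% in wild type at 30 °C (n = 3), 38.0 ± 0.58% in mN (n = 3), 37.7 ± 1.62% in mC (n = 3), 43.0 ± 0.53% in mNmC (n = 3) and 43.8 ± 0.76% at 37 °C (n = 3). With 13 libraries the HTB1 share was 42.9 ± 0.66% in mNmC and 43.8 ± 1.07% at 37 °C (n = 2 each). The H2B ratio is the one that passed both as labelled (exact permutation p = 0.00115, adjusted 0.00461) and with 13 libraries (exact permutation p = 0.00284, adjusted 0.00392), and in it mNmC and 37 °C lay side by side above the other groups. The smallest p these tests can give is 7.14e-07 with 15 libraries and 1.67e-06 with 13. They ask whether a ratio varied among the groups, not which groups differ.

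**Figure D3:**
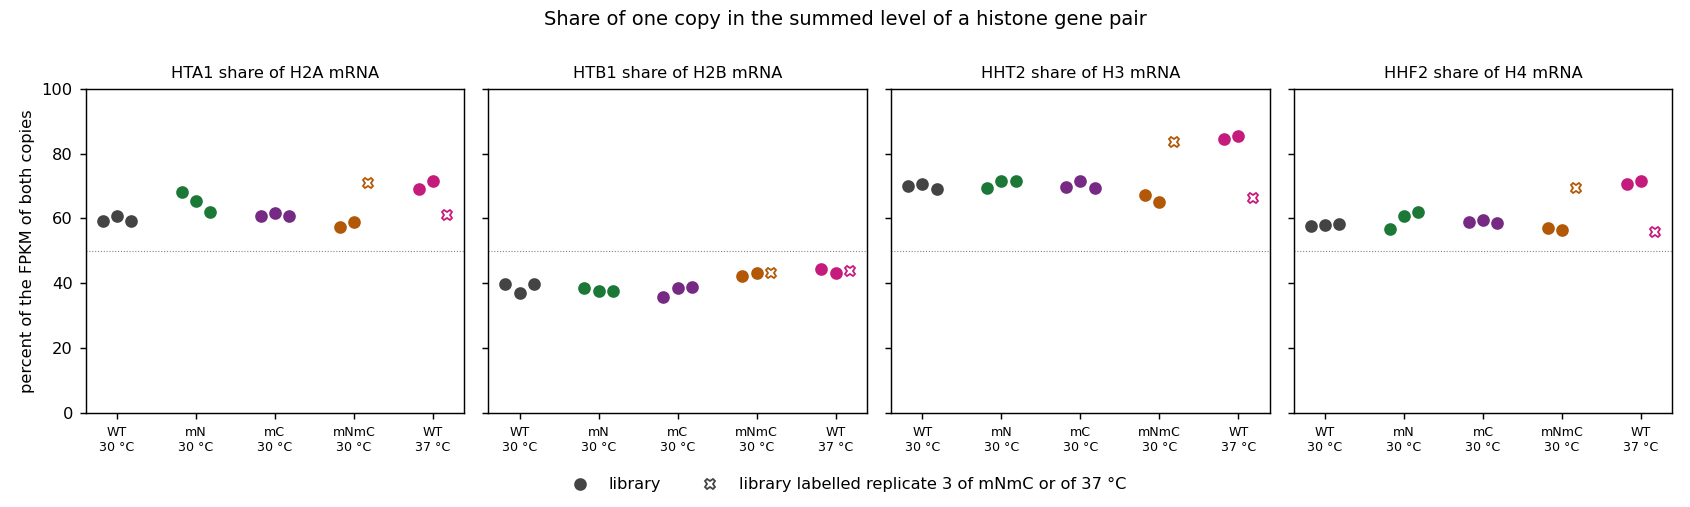
Percent of the FPKM of both copies supplied by the named copy in each library, by group, with the library labelled replicate 3 of mNmC and of 37 °C as open crosses and a dotted line where both copies are equal. HHT2 moves from 69.0 to 70.5% at 30 °C to 84.4 and 85.4% at 37 °C in wild type, while mN and mC stay between 69.2 and 71.7%.

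Summed over the 8 core genes, histone mRNA was lower in every group than in wild type at 30 °C. At 30 °C the sum was 16495, 15187.5 and 16103 FPKM in wild type, while mN gave 8489, 9431 and 10593. In mC it was 9686, 11464 and 12096, and in mNmC 13260.5, 12757 and, in the library labelled replicate 3, 9772. At 37 °C it was 10499, 9581 and, in the library labelled replicate 3, 12851. No library of another group reached the wild type range at 30 °C, and replicates 1 and 2 of mNmC were the next highest beside the library labelled 37 °C replicate 3.

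The balance between core histones varied among the groups, and its values in mNmC and at 37 °C depend on the libraries kept. H3 and H4 together made up 53.7 ± 0.19% of the core sum in wild type at 30 °C (SD, n = 3), 53.5 ± 2.16% in mN (n = 3), as well as 55.0 ± 0.55% in mC (n = 3). With 13 libraries they made up 56.5 ± 0.65% in mNmC (n = 2) and 65.3 ± 0.40% at 37 °C (n = 2), and as labelled 59.6 ± 5.48% and 62.2 ± 5.40% (n = 3 each). The ratio of summed H3 to summed H4 was 1.08 ± 0.05 in wild type at 30 °C (n = 3), 1.53 ± 0.32 in mN (n = 3), 1.18 ± 0.05 in mC (n = 3), and with 13 libraries 0.99 ± 0.03 in mNmC (n = 2) and 1.47 ± 0.04 at 37 °C (n = 2). As labelled this ratio was 1.19 ± 0.35 in mNmC and 1.33 ± 0.24 at 37 °C (n = 3 each). HTZ1 made up 8.70 ± 0.26% of H2A and H2A.Z mRNA in wild type at 30 °C (n = 3), 11.1 ± 0.32% in mN (n = 3), as well as 11.4 ± 0.75% in mC (n = 3), and with 13 libraries 10.2 ± 0.10% in mNmC (n = 2) and 12.4 ± 0.28% at 37 °C (n = 2). As labelled the HTZ1 share was 10.99 ± 1.33% in mNmC and 11.6 ± 1.40% at 37 °C (n = 3 each). These sums and shares were not tested beyond the ratios of copies above.

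**Figure D4:**
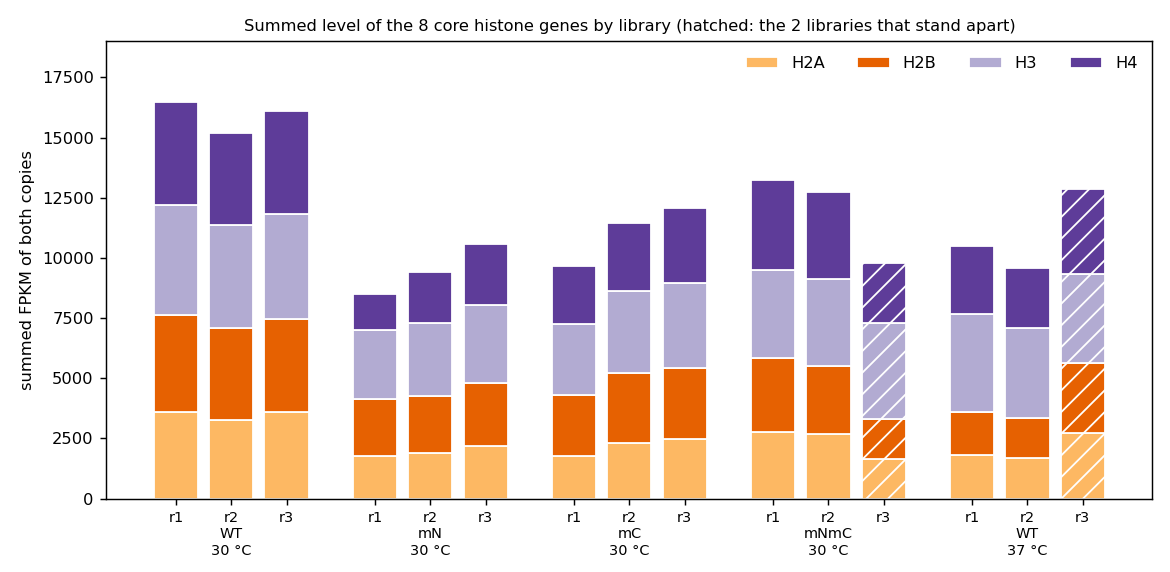
Summed FPKM of both copies of H2A, H2B, H3 and H4 (vertical axis, from 0) in each library, with the library labelled replicate 3 of mNmC and of 37 °C hatched. Wild type at 30 °C reaches 15187.5 to 16495 and mN 8489 to 10593. In replicates 1 and 2 at 37 °C the H2A and H2B segments shrink more than the H3 and H4 segments.

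Most genes that regulate histone transcription were not called at 37 °C on the deposited scale. The background for this and the next gene lists is the share of all 6399 genes called. With 13 libraries it was 47% higher and 18.9% lower at 37 °C, 40.6% and 7.39% in mNmC, 12.8% and 5.36% in mN, and 12.3% and 2.45% in mC. As labelled it was 32.1% and 5.97%, 24.5% and 2.41%, 0.422% and 0.0313%, and 0.172% and 0.0156% in the same order. Of 17 such regulators 5 rose, 2 fell and 10 were not called with 13 libraries, and 3 rose and 1 fell as labelled. YTA7, a chromatin ATPase that acts at histone genes, rose (0.87 ± 0.07, adjusted p = 9.93e-07). SWI4, the DNA-binding subunit of the G1 factor SBF, also rose (0.73 ± 0.14, adjusted p = 0.000565). FKH1, a forkhead transcription factor, fell (-1.08 ± 0.17, adjusted p = 0.000154). In mNmC 6 rose, 0 fell and 11 were not called with 13 libraries, with 3 higher and 0 lower as labelled. They included HPC2, a HIR complex subunit (0.44 ± 0.09, adjusted p = 0.00241), RTT106, an H3-H4 chaperone that works with HIR (0.37 ± 0.10, adjusted p = 0.0101), and SPT21, the partner of Spt10 (0.33 ± 0.12, adjusted p = 0.0387). In mN and in mC 2 of 17 rose and 0 fell with 13 libraries, and 0 passed as labelled. With upper-quartile scaling and 13 libraries the regulators gave 3 higher and 7 lower at 37 °C and 0 higher and 2 lower in mNmC. Of all 6399 genes, 2192 were then called higher and 1922 lower at 37 °C, and 1301 and 1080 in mNmC. The balance of the regulators turned with the scaling. Among all genes more were called higher than lower under either scaling, by a smaller margin with upper-quartile scaling. The median change of this list at 37 °C was 0.11 with 13 libraries, below the 0.29 of all genes.

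At 37 °C with 13 libraries histone chaperones and genes of the H2A.Z exchange complex were called in both directions, beside 47% of all genes called higher and 18.9% called lower. Of 18 chaperones 5 rose, 6 fell and 7 were not called at 37 °C with 13 libraries (4 higher, 0 lower as labelled). NHP6B, a small HMG-box protein, rose (1.18 ± 0.23, adjusted p = 0.000761) and HIF1, which associates with a histone acetyltransferase, fell (-0.83 ± 0.12, adjusted p = 0.000108). CAC2, a subunit of chromatin assembly factor 1, rose (0.71 ± 0.17, adjusted p = 0.00306). In mNmC 7 rose and 0 fell (4 and 0 as labelled), beside 40.6% and 7.39% of all genes, led by SCM3, the chaperone of the centromeric H3 variant (1.10 ± 0.17, adjusted p = 0.000382), CHZ1, an H2A.Z chaperone (0.86 ± 0.16, adjusted p = 0.00134), and MSI1, another chromatin assembly factor 1 subunit (0.45 ± 0.15, adjusted p = 0.0273). In mN 1 rose and 1 fell (12.8% and 5.36% of all genes) and in mC 1 rose and 0 fell (12.3% and 2.45%). Of 13 genes of the H2A.Z exchange complex 5 rose and 3 fell at 37 °C, among them VPS71 (0.55 ± 0.13, adjusted p = 0.00237), SWC4 (0.52 ± 0.07, adjusted p = 6.78e-05) and the helicase RVB1 (-0.63 ± 0.11, adjusted p = 0.000495). In mNmC 7 of 13 rose and 0 fell, in mN 0 changed and in mC 4 rose. SWC5 (0.57 ± 0.13, adjusted p = 0.00470) and SWC3 (0.52 ± 0.12, adjusted p = 0.00458) led in mNmC. As labelled the complex gave 4 higher and 0 lower at 37 °C and 5 higher and 0 lower in mNmC. With upper-quartile scaling and 13 libraries the chaperones gave 4 higher and 8 lower at 37 °C and 2 higher and 0 lower in mNmC, and the complex 2 higher and 4 lower, then 3 higher and 1 lower. Beside these, 2192 of all 6399 genes were called higher and 1922 lower at 37 °C, and 1301 and 1080 in mNmC.

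Among genes of G1 and S phase, the window in which histones are made, more fell than rose at 37 °C. Of 24 G1 and S phase genes 13 fell, 3 rose and 8 were not called with 13 libraries (5 lower and 2 higher as labelled), beside 18.9% of all genes called lower and 47% called higher, with a median change of -0.35 where that of all genes was 0.29. RNR1, the large subunit of ribonucleotide reductase, fell by 2.06 ± 0.09 (adjusted p = 5.05e-09), CLN2, a G1 cyclin, fell by 1.94 ± 0.12 (adjusted p = 7.55e-08), and PCL1, another G1 cyclin, fell by 1.06 ± 0.20 (adjusted p = 0.000722). In mNmC 3 fell and 2 rose (2 and 0 as labelled), beside 7.39% and 40.6% of all genes, with RNR1 at -0.77 ± 0.09 (adjusted p = 5.98e-05), CLN1 at -0.41 ± 0.12 (adjusted p = 0.0141) and TOS4 at -0.40 ± 0.12 (adjusted p = 0.0185). In mN and in mC 2 of 24 fell and 0 rose, beside 5.36% and 2.45% of all genes called lower, and these were CLN2 (-0.48 ± 0.11 in mN, -0.35 ± 0.11 in mC) and RNR1 (-0.28 ± 0.08 in mN, -0.30 ± 0.08 in mC), named after their values were seen. The summed level of the list was 972 to 1053 FPKM in wild type at 30 °C, 749.6 to 927 in mN, 834 to 974 in mC, and with 13 libraries 989 to 989.8 in mNmC and 702 to 727 at 37 °C. Its part in the histone changes was not tested.

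Of 15 genes of G2 and M phase, 5 rose, 4 fell and 6 were not called at 37 °C with 13 libraries (3 higher and 1 lower as labelled), beside 47% of all genes called higher and 18.9% called lower. The mitotic cyclins CLB2 (-1.05 ± 0.11, adjusted p = 8.31e-06) and CLB1 (-0.73 ± 0.15, adjusted p = 0.00110) fell. In mNmC 5 rose and 1 fell (3 and 0 as labelled), beside 40.6% and 7.39% of all genes, with KIN3, a mitotic kinase, at 0.76 ± 0.09 (adjusted p = 7.32e-05), CDC20, the anaphase activator, at 0.58 ± 0.16 (adjusted p = 0.0113) and IQG1, a cytokinesis protein, at 0.52 ± 0.10 (adjusted p = 0.00123). In mN 1 rose and in mC 5 rose, beside 12.8% and 12.3% of all genes, and 0 fell in either. With upper-quartile scaling and 13 libraries the G1 and S list gave 2 higher and 19 lower at 37 °C and 0 higher and 9 lower in mNmC, and the G2 and M list 1 higher and 9 lower, then 3 higher and 2 lower. Of all 6399 genes, 2192 were then called higher and 1922 lower at 37 °C, and 1301 and 1080 in mNmC.

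The levels of RNAs that carry no long poly(A) tail also moved with the groups. Whether more of them passed the oligo(dT) selection or more were present in the cells was not tested. The 10 such RNAs summed to 190.3 to 212 FPKM in wild type at 30 °C, 197 to 259 in mN and 199 to 215 in mC. They summed to 614 and 633 FPKM in mNmC replicates 1 and 2 and to 2034 and 2063 at 37 °C replicates 1 and 2, and the library labelled replicate 3 gave 1746 in mNmC and 552 at 37 °C. With 13 libraries 8 of 10 rose and 0 fell both at 37 °C and in mNmC (7 and 6 higher as labelled), beside 47% and 40.6% of all genes called higher (32.1% and 24.5% as labelled). In mN 3 rose and in mC 0, beside 12.8% and 12.3%. SCR1, the signal recognition particle RNA, changed by 5.20 ± 0.12 at 37 °C (adjusted p = 4.83e-11) and by 2.91 ± 0.12 in mNmC (adjusted p = 3.57e-08). RPR1, the RNase P RNA, changed by 3.86 ± 0.13 and 2.59 ± 0.13, and snR17a, a U3 small nucleolar RNA, by 3.84 ± 0.11 and 1.57 ± 0.11. The part of this difference between libraries in the histone values at 37 °C and in mNmC was not tested.

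CSE4, the centromeric H3 variant, is not among the 10 members, and its difference from the core H3 genes was not tested. With 13 libraries it gave -0.05 ± 0.15 at 37 °C (adjusted p = 0.797), -0.30 ± 0.14 in mN (adjusted p = 0.161) and 0.02 ± 0.14 in mC (adjusted p = 0.949), and it rose in mNmC (0.46 ± 0.15, adjusted p = 0.0287). As labelled it was not called in any of these 4, and with upper-quartile scaling and 13 libraries it fell at 37 °C (-0.29 ± 0.11, adjusted p = 0.0382) and was not called in mNmC.

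The genes whose levels ran most like the mean of the 8 core genes were found by the root mean square difference of centred log2(FPKM + 1) profiles over the 5418 genes whose mean reached 10 FPKM. Over 15 libraries they were YGK1 (0.124), RPL41B, a ribosomal protein gene (0.145), VMA7, a vacuolar ATPase subunit (0.153), TRX1, a thioredoxin (0.154), and ENV9 (0.158), on a profile that spans 1.01 log2 units. Over 13 libraries they were YGK1 (0.123), RPL41B (0.151), TRX1 (0.156), VMA7 (0.158) and YMC2 (0.163). Among the histone genes themselves, which helped to make the mean, HTB1 was the closest to it (0.088) and HTA1 next (0.106), and HHT2 was the farthest (0.383) over 15 libraries. Between them lay HHT1 (0.173), HHF1 (0.183), HTA2 (0.214), HTB2 (0.218) and HHF2 (0.261). These core genes and HHT2 were farther from the mean than the non-histone genes named for 15 libraries. HTZ1 (0.156) and HHO1 (0.218) were not part of the mean.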

How the data were processed

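The deposited values are FPKM, scaled by the authors to gene length and library depth. Whole reads recovered from them (value times the open reading frame length in the R64 reference, divided by 1 constant per library) were whole within 0.01 read for 99.87 to 99.89% of values. Tools named, per the submitters' processing notes, are TopHat2 2.0.12, Bowtie2 2.2.3 and HTSeq 0.6.1. The sources used here do not give the build, annotation or filters. Per the labels' protocols RNA was extracted with hot phenol, selected on oligo(dT) and primed with random hexamers. Groups came from the labels. Of 7126 identifiers 6048 matched R64, from which sequences, symbols and windows were read.

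A linear model with 1 mean per group was fitted in limma 3.58.1 (R 4.3.3, variance trend) to log2(FPKM + 1) of all 15 libraries, for the 6399 genes that reached 1 FPKM in 3 or more libraries, and adjusted by Benjamini-Hochberg in each of 7 comparisons. The design's branch for counts was not used, since the table holds FPKM. In simulated data for the comparison of 37 °C with 30 °C, with 200 of 6238 genes changed, 94.9% of changes of 1 log2 unit and 97% of changes of 2 were recovered. In the same data 10 genes were called wrongly. The simulated spread came from the 13 libraries, but all 15 libraries were simulated. These rates therefore need not hold for the fit as labelled or for the fit with 13 libraries. Copy ratios were tested by exact permutation of libraries among groups. Shares and figures used Python 3.11.15 with matplotlib 3.10.9, pandas 2.3.3 and numpy 2.4.6.

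The members and the gene lists (17 histone regulators, 18 chaperones, 13 H2A.Z exchange, 24 G1 and S, 15 G2 and M, 10 RNAs without a long poly(A) tail) were chosen with earlier results of these data known, as was leaving out 2 libraries. Besides the members, the rule named per list up to 3 called genes with the largest change at 37 °C and up to 3 in mNmC, with 13 libraries, the 5 genes most like the core mean, CSE4 and HSF1. A gene that this rule names in the G2 and M list is not reported here. Alternatives were upper-quartile scaling, no trend, no filter, a filter at 10 FPKM, a pseudocount of 0.1, fitting the compared groups alone, a replicate block, and leaving out libraries.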

Additional observations from a re-analysis of the deposited data

Results flagged for a closer look

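The effect of one mutated site differed with and without the other, by the interaction test in limma with Benjamini-Hochberg adjustment, for HHF2 as labelled (1.24 on the log2 scale). With 13 libraries it did so for 9 members, at 0.99 for HTA1, 1.50 for HTA2, 0.94 for HTB1, 0.58 for HTB2, 0.93 for HHT1, 0.59 for HHT2, 1.58 for HHF1, 1.34 for HHF2 and 0.63 for HTZ1. With upper-quartile scaling and 13 libraries the count was also 9 of 10, beside 1098 of all 6399 genes called higher.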

How the results depend on the processing

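Counts of members called moved by over 1.5 times as follows. At 37 °C against 30 °C the count of 6 became 3 with the replicate block and 3 with the groups compared only. In mNmC against wild type the count of 2 became 4 with upper-quartile scaling, 9 with that scaling and 13 libraries, 0 with the replicate block and 0 with the groups compared only. In mN the count of 0 became 10 with 13 libraries, alone or with upper-quartile scaling or the replicate block, 1 with upper-quartile scaling, 1 without the variance trend and 8 with the groups compared only. In mC the count of 0 became 7 with 13 libraries, 9 with upper-quartile scaling added, 8 with the replicate block added and 10 with the groups compared only. In mNmC against 37 °C the count of 0 became 9 with 13 libraries in all 3 forms. For the interaction the count of 1 became 9 with 13 libraries in all 3 forms and 0 with the replicate block.

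Leaving out 1 library at a time gave 1 to 8 members called at 37 °C, 0 to 2 in mNmC, 0 to 1 in mN, 0 in mC, 0 in mC against mN, 0 in mNmC against 37 °C and 0 to 4 for the interaction. The exact permutation p of the copy ratios then ran from 0.0495 to 0.553 for H2A, 0.000365 to 0.00171 for H2B, 0.0344 to 0.935 for H3 and 0.0304 to 0.881 for H4. The lowest came without the library labelled mNmC replicate 3 for H2A and without that labelled 37 °C replicate 3 for H3 and H4. With 13 libraries it was 0.00294 for H2A, 0.000423 for H3 and 0.00568 for H4.

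HHT2 at 37 °C turned from -0.05 to 0.0975 with 13 libraries, to 0.125 with 13 libraries and the replicate block, and, leaving out 1 library at a time, ran from -0.144 (without 37 °C replicate 1) to 0.0975 (without the library labelled 37 °C replicate 3). The cause of these shifts was not tested. Filters and pseudocounts moved no count by over 1.5 times. The replicate numbers showed little pairing of the libraries. As labelled, correlations of same-numbered libraries after centring on group means ran from -0.950 to 0.149, with 3 of 30 over 0.1. With 13 libraries they ran from -0.049 to 0.149, with 4 of 23 over 0.1. In the 13 libraries, mNmC and 37 °C have 2 libraries each, which limits their spread.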
